A study of Mus musculus with 6 samples.

Results

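The expression of 9 genes of the interferon response was followed in mouse hearts that had lost MRPS5, a protein of the mitochondrial ribosome. The genes were taken by name from the deposited table of 54532 genes and were Ddx58, Ifih1, Irf7, Usp18, Ifit1, Ifit2, Ifit3, Isg15 and Oasl2. All 9 were found, and all 9 were among the 12944 genes that reached a mean of 0.5 FPKM (fragments per kilobase of gene, scaled to library size by the authors) and could be tested. They were compared between the groups because mitochondrial RNA or DNA that leaks into the cytosol can set off this response.

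The 3 Ctrl mice were Mrps5 fl/fl, that is, homozygous for a loxP-flanked Mrps5 allele. The 3 cKO mice were Mrps5 fl/fl and carried MCM, the tamoxifen-inducible Cre recombinase MerCreMer, driven in cardiomyocytes by the alpha-myosin heavy chain promoter. Both groups received tamoxifen by intraperitoneal injection at 45 mg per kg per day for 5 days from 8 weeks of age. RNA of heart tissue was sequenced 12 weeks later, as the labels give it. The methods name the tissue as ventricular, describe the Ctrl mice as littermates and give a younger age at harvest than the labels. No Ctrl mouse carried MCM, so an effect of the transgene and an effect of Mrps5 loss cannot be told apart.

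RIG-I (encoded by Ddx58) and MDA5 (encoded by Ifih1) are helicases of the cytosol that bind double-stranded RNA, and they signal through MAVS, an adaptor on the outer mitochondrial membrane. TBK1 then activates IRF3 and IRF7, type I interferon is made, and its receptor acts through factors such as STAT2 and IRF9 on a large set of interferon-stimulated genes. The RNA sensors, IRF7 and the other genes followed here are themselves members of that set, so their RNA is widely read as a measure of the response.

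These factors act at a DNA element, the interferon-stimulated response element, whose core can be written GAAANNGAAA. Only matches to this pattern were sought, so variants of the element would be missed. The stretches of the promoters that carry it are shown for Ifit1, Ifit3 and Isg15, which hold it before the start of transcription. They were read from RefSeq on GRCm38.p6 and are printed 5′ to 3′ on the strand of the gene, and capitals mark the motif, which reads TTTCNNTTTC where it lies on the other strand. B2m, the light chain of class I antigen presentation, is shown beside them because its pattern over the hearts was among the most like that of the 9 genes. The promoters of the other genes of like pattern are not shown, so B2m does not stand for them.
Ifit1, chr19:34640760-34640838, plus strand: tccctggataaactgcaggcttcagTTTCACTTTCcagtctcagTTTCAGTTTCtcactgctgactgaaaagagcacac
Ifit3, chr19:34583348-34583441, plus strand: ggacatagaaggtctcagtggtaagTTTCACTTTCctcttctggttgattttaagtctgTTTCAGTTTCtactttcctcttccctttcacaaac
Isg15, chr4:156200850-156200921, minus strand: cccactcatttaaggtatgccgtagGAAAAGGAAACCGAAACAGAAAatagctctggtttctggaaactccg
B2m, chr2:122147523-122147582, plus strand: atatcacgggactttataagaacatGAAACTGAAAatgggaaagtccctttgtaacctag

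In Ifit1 and Ifit3 the motif occurred in 2 separate copies, and in Isg15 in 3 copies that overlap. In a window from 250 bases before to 50 bases after the annotated start, searched on both strands, 5 of the 8 members with a RefSeq promoter held the motif. Ddx58 held it from 2 to 11 bases and Ifih1 from 32 to 41 bases after the start, and Ifit2, Irf7 and Oasl2 held none. Of all 27025 genes with a RefSeq promoter sequence, 3.99% held the motif in the same window. Of the 9275 tested genes with such a sequence, 3.56% held it. No entry was matched for Usp18.

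**Figure D1:**
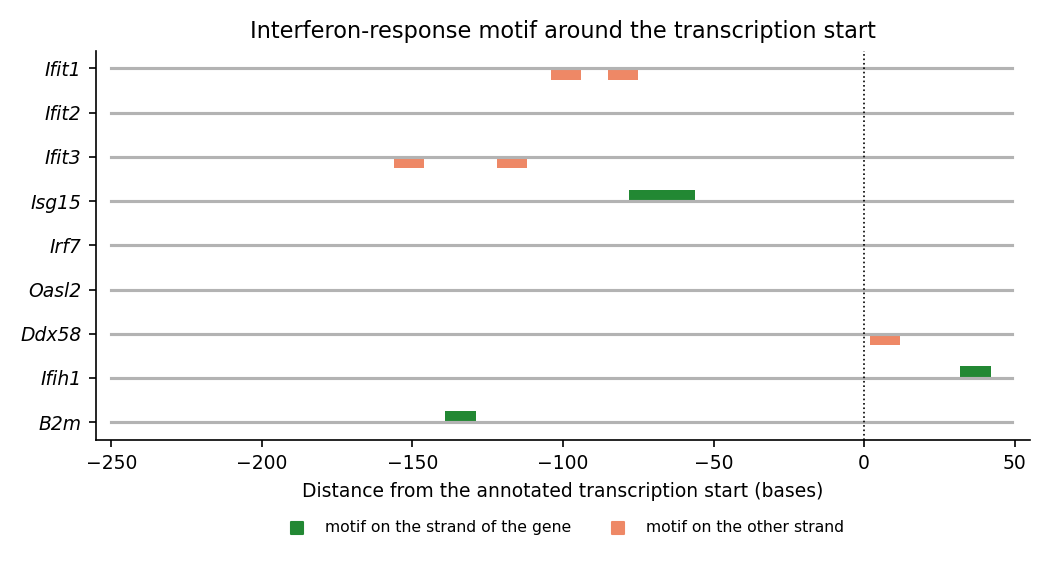
Position of GAAANNGAAA in the promoter windows of 8 members and of B2m, in bases from the annotated transcription start (dotted line), with matches on the strand of the gene above each line and matches on the other strand below it. Ifit1, Ifit3, Isg15 and B2m hold the motif before the start, Ddx58 and Ifih1 after it.

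Before the members, the libraries are described. The 6 libraries held 15989322 to 24875499 reads assigned to genes, recovered from the deposited values. Mrps5 measured 5.20, 6.45 and 6.33 FPKM in Ctrl and 1.12, 1.23 and 1.31 FPKM in cKO, so every library matched its genotype label. Cardiomyocyte markers were abundant in every heart, and their levels are given beside the results they move with. The sum of 4 atrial markers differed widely between libraries of either group, at 2052, 289 and 128 FPKM in Ctrl and 575, 1348 and 1652 FPKM in cKO. Whether atrial tissue was included in some samples, which the methods name as ventricular, was not tested. The heart of cKO replicate 2 stood apart from the other 5. The study describes its animals as male, and in this heart the Y-linked genes Ddx3y, Uty, Kdm5d and Eif2s3y had no read, whereas they averaged 7.61 to 8.79 FPKM in the others. Xist, the RNA that coats the inactive X chromosome, was at 10.7 FPKM there against at most 0.127 FPKM elsewhere. The depth of this library lay within the range of the others. Results are therefore given with and without this heart.

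None of the 9 genes passed the test for a difference between cKO and Ctrl when all 6 hearts were compared. Every one of them was highest in a single heart, cKO replicate 2, against 18.4% of all genes tested. In that heart Irf7 reached 12.2 times the Ctrl mean. In cKO replicates 1 and 3, 7 of the 9 were below every Ctrl heart, against 31.9% of all genes tested. Values of a group are given in the order of replicates 1, 2 and 3. The members are taken in the order of their roles, from the RNA sensors to the effectors.

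Ddx58 (ENSMUSG00000040296, chromosome 4, 40203773 to 40239828, minus strand, 18 exons), which encodes the sensor RIG-I, measured 1.54, 1.44 and 1.65 FPKM in the Ctrl group. The cKO group gave 1.34, 2.65 and 1.27 FPKM. The cKO values lay on either side of the Ctrl range, with cKO replicate 2 alone above it. On the scale of log2(FPKM + 1), cKO minus Ctrl was 0.08 (95% interval -0.35 to 0.51, limma, adjusted p = 0.761). Because the tissue is a mixture, here and in every comparison that follows, fewer cells of a type and less RNA per cell cannot be told apart.

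Ifih1 (ENSMUSG00000026896, chromosome 2, 62595798 to 62646255, minus strand, 16 exons), which encodes the sensor MDA5, had the lowest ratio of cKO replicate 2 to the Ctrl mean, 1.27. Its values were 1.19, 1.18 and 0.942 FPKM in Ctrl and 0.666, 1.41 and 0.857 FPKM in cKO. Both low values and the highest value of the 6 hearts came from the cKO group, so the groups overlapped. The fitted log2 difference was -0.11 (95% interval -0.45 to 0.24, limma, adjusted p = 0.606). At 269 reads, the count behind its value in cKO replicate 2, the exact 95% Poisson interval was 1.25 to 1.59 FPKM and overlapped that of Ctrl hearts.

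Irf7 (ENSMUSG00000025498, chromosome 7, 141262706 to 141266481, minus strand, 10 exons) encodes the transcription factor that amplifies type I interferon production. The Ctrl hearts gave 2.44, 2.66 and 2.85 FPKM on the basis of 176, 209 and 260 reads. The cKO hearts gave 1.55, 32.2 and 1.92 FPKM on the basis of 99, 2841 and 182 reads. A single cKO heart was thus 11.3 times the highest of the other 5 hearts, while the other 2 cKO hearts were below all Ctrl hearts. The cKO mean of 11.9 ± 17.6 FPKM (SD, n = 3) therefore describes no heart of the group. The log2 difference was 0.78 (95% interval -1.39 to 2.95, limma, adjusted p = 0.545). Irf7 overlaps Phrf1 in position, and Phrf1 was at 2.61 to 2.83 FPKM in the 6 hearts.

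Usp18 (ENSMUSG00000030107, chromosome 6, 121245906 to 121270917, plus strand, 11 exons) encodes a protease that removes ISG15 from proteins and dampens signalling at the interferon receptor. It was the least abundant member in Ctrl, at 0.921, 1.03 and 0.919 FPKM. The cKO hearts gave 0.487, 3.33 and 0.613 FPKM. As for Irf7, cKO replicates 1 and 3 were below and cKO replicate 2 above every Ctrl heart. The log2 difference was 0.16 (95% interval -0.75 to 1.06, limma, adjusted p = 0.781).

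The IFIT proteins bind foreign RNA and hold back its translation. Ifit1 (ENSMUSG00000034459, chromosome 19, 34640871 to 34650009, plus strand, 2 exons) measured 1.48, 1.52 and 1.43 FPKM in Ctrl and 0.979, 6.10 and 1.35 FPKM in cKO. Its Ctrl values were the closest to each other in proportion, and the cKO values lay below and far above them. Ifit2 (ENSMUSG00000045932, chromosome 19, 34550694 to 34576419, plus strand, 3 exons) measured 4.46, 4.41 and 3.01 FPKM in Ctrl and 4.47, 6.67 and 4.16 FPKM in cKO. It was the only member of the 9 whose lowest value came from a Ctrl heart.

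Ifit3 (ENSMUSG00000074896, chromosome 19, 34583531 to 34588731, plus strand, 2 exons) measured 4.90, 4.52 and 3.70 FPKM in Ctrl and 2.64, 11.5 and 2.78 FPKM in cKO. Its transcript shares 31.7% of its stretches of 100 bases with the neighbouring Ifit3b, so reads of these genes may have been exchanged. Ifit3b itself ranged from 0.889 to 1.31 FPKM in Ctrl and gave 0.236, 2.93 and 0.656 FPKM in cKO. The log2 differences were 0.37 (95% interval -0.68 to 1.42) for Ifit1, 0.29 (-0.15 to 0.73) for Ifit2 and 0.06 (-1.02 to 1.13) for Ifit3. The limma adjusted p-values were 0.552, 0.268 and 0.936 in the same order.

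Isg15 (ENSMUSG00000035692, chromosome 4, 156199424 to 156200818, minus strand, 2 exons) encodes a ubiquitin-like protein that is attached to other proteins. It measured 4.23, 5.22 and 6.12 FPKM in Ctrl and 3.67, 14.0 and 4.63 FPKM in cKO. Among the cKO hearts, replicate 3 lay within the Ctrl range, replicate 1 below it and replicate 2 above it. The log2 difference was 0.26 (95% interval -0.72 to 1.24, limma, adjusted p = 0.662).

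Oasl2 (ENSMUSG00000029561, chromosome 5, 114896936 to 114912234, plus strand, 6 exons), a relative of the oligoadenylate synthetases, gave 1.51, 1.49 and 1.17 FPKM in the Ctrl hearts. The values of the cKO hearts were 0.834, 2.70 and 1.12 FPKM. As for Irf7 and Usp18, the other 2 cKO hearts were below every Ctrl heart. The log2 difference was 0.03 (95% interval -0.56 to 0.62, limma, adjusted p = 0.939).

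**Figure D2:**
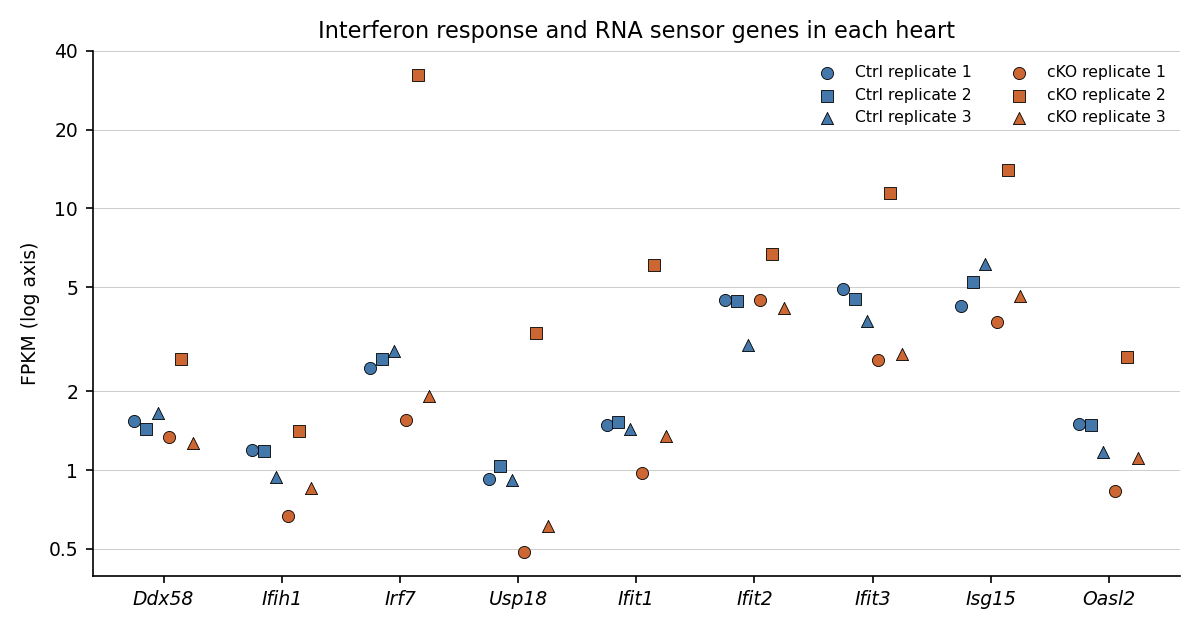
FPKM of the 9 genes in each heart on a log axis, with Ctrl hearts in blue, cKO hearts in orange and 1 marker shape per replicate number. The square of cKO replicate 2 is the highest point of every gene, from 1.41 FPKM for Ifih1 to 32.2 FPKM for Irf7.

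Of the 9 genes, 0 were higher and 0 were lower in cKO at an adjusted p under 0.05 with limma, and 0 passed in either direction at an unadjusted p under 0.05. The same count came from voom on the recovered reads. Of all 12944 genes tested, 16.3% were higher and 17.0% were lower in cKO. The median log2 difference of the members was 0.16, against -0.02 over all genes tested. An exact permutation test of the 3 against 3 values, two-sided, gave p = 0.4 for Ifit2, 0.6 for Ifih1, 0.9 for Isg15 and 1 for each of the others, where 0.1 is the smallest value that this design allows. The narrowest 95% interval, that of Ifih1, ran from -0.45 to 0.24 and the widest, that of Irf7, from -1.39 to 2.95. Intervals of this width do not show that the groups were equal.

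The heart of cKO replicate 2 was the highest of the 6 for 9 of the 9 members, whereas 18.4% of all genes tested were highest in this heart. No other heart was the highest for any member. For 7 of the 9, cKO replicate 2 was at least 1.5 times the next heart, which held for 1.39% of all genes tested. The ratio to the highest other heart was 11.3 for Irf7, 4.01 for Ifit1, 3.22 for Usp18, 2.34 for Ifit3 and 2.29 for Isg15. It was lower for Oasl2 at 1.79 and for the RNA sensor Ddx58 at 1.61, and below 1.5 for Ifit2 at 1.49 and Ifih1 at 1.18. The exact 95% counting interval in this heart was above that of each other heart for 8 of the 9, all but Ifih1. Summed over the 9 genes, the level was 21.8 to 23.5 FPKM in Ctrl, 16.6 and 18.7 FPKM in cKO replicates 1 and 3, and 80.6 FPKM in cKO replicate 2.

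The order of the members changed with it. In Ctrl, Isg15 (5.19 ± 0.946 FPKM, SD, n = 3), Ifit3 (4.37 ± 0.615) and Ifit2 (3.96 ± 0.822) were the most abundant per length, and their ranges overlapped. Irf7 came next at 2.65 ± 0.201 FPKM, below all values of those 3. Ddx58 (1.54 ± 0.104), Ifit1 (1.48 ± 0.0445) and Oasl2 (1.39 ± 0.190) overlapped each other, and Ifih1 (1.11 ± 0.143) and Usp18 (0.958 ± 0.0659) were lowest and also overlapped. The highest Ctrl value of Ifih1, 1.19 FPKM, was just above the lowest of Oasl2, 1.17 FPKM. In cKO replicate 2, Irf7 was the first of the 9.

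Without cKO replicate 2, the fit compared 2 cKO hearts with the 3 Ctrl hearts, and 8 of the 9 genes had a negative difference. Ifit3 was lower by 0.53 on the log2 scale (difference -0.53, SE 0.114, limma, adjusted p = 0.0192). Irf7 (difference -0.42, SE 0.0986, adjusted p = 0.0247) and Usp18 (difference -0.34, SE 0.0934, adjusted p = 0.0400) were lower as well. Thus 3 of the 9 passed the threshold as lower and 0 as higher, at an adjusted or an unadjusted p under 0.05. Over all genes tested without this heart, 15.5% were lower and 15.3% were higher. The heart left out was the highest for every member, so leaving it out lowers each member's cKO mean by construction, and the difference of the member count from the background was not tested.

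The other 6 did not pass without that heart. Their log2 differences were -0.26 for Isg15, -0.27 for Oasl2, -0.26 for Ifih1, -0.20 for Ifit1, -0.14 for Ddx58 and 0.11 for Ifit2. The adjusted p-values of these 6 (limma) ran from 0.115 for Ifih1 to 0.598 for Ifit2. Both remaining cKO hearts were below every Ctrl heart for 7 of the 9, all but Ifit2 and Isg15, which was so for 31.9% of all genes tested. The heart of cKO replicate 1, also the shallowest library, was the lowest of the 6 for 7 of the 9. The share of all genes tested that were lowest in cKO replicate 1 was not counted, so this is not read as a trait of the members. Endothelial markers moved the same way, with all 7 lower without cKO replicate 2 and their sum at 137 to 155 FPKM in the Ctrl group against 89.8, 108 and 98.7 FPKM in the cKO group, and cardiomyocyte markers did so too. Of these, 7 of 8 were lower without that heart, all 8 were below every Ctrl heart in cKO replicates 1 and 3, and cKO replicate 1 was the lowest heart in 7. Their sum was 16143 to 19266 FPKM in the Ctrl group against 8822, 12229.7 and 10883 FPKM in the cKO group. Over all genes tested, 15.5% were lower without cKO replicate 2, and 31.9% were below every Ctrl heart in cKO replicates 1 and 3. The part of either marker list in the lower member values was not tested.

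**Figure D3:**
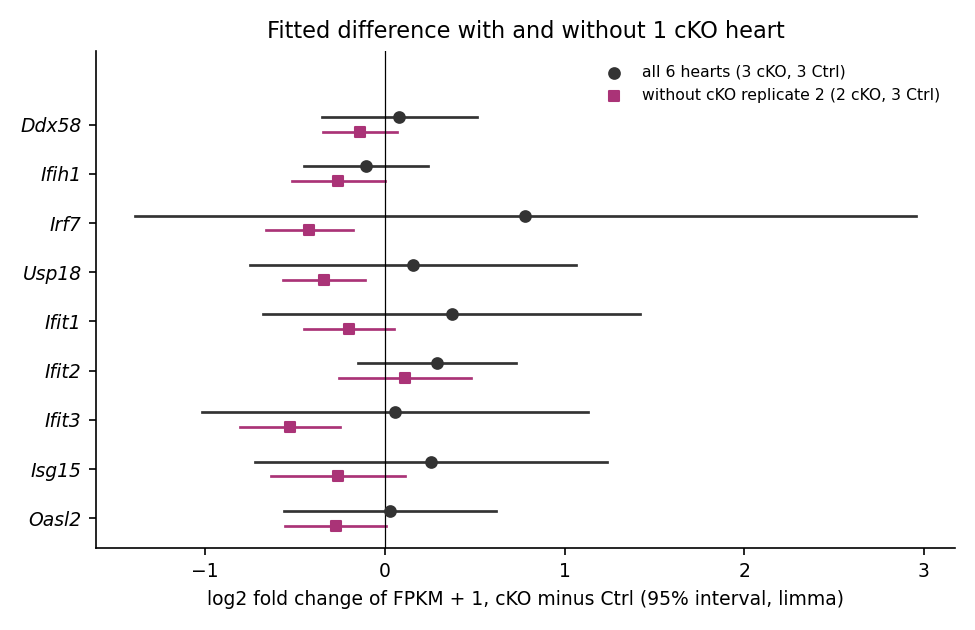
Fitted log2 fold change of FPKM + 1 with its 95% interval (limma) for the 9 genes, with all 6 hearts (black) and without cKO replicate 2 (purple). With all hearts every interval spans 0, and without that heart the intervals of Irf7, Usp18 and Ifit3 lie below 0.

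Leaving out cKO replicate 2 turned the sign of the difference in 7 of the 9 genes, namely Ifit1, Ifit3, Isg15, Irf7, Oasl2, Ddx58 and Usp18. Ifit2 remained positive and Ifih1 negative. The correlation of log2(FPKM + 1) between pairs of members over the 6 hearts had a median of 0.93 (36 pairs, 0.55 to 1.00). Without cKO replicate 2, over 5 hearts, the median was 0.70 and the range -0.80 to 1.00. The genes of a pair share the depth and scaling of each library, and these values are a description.

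The upstream arm of the pathway was examined next, from lists of pathway genes. Of 10 tested sensors and adaptors, 1 was higher and 1 lower in cKO, against 16.3% and 17.0% of all genes tested. The median log2 difference was -0.03, and the list is given for the genes it names. Tmem173, which encodes STING, the adaptor for cytosolic DNA, was higher at 3.70, 3.57 and 4.13 FPKM against 2.57, 1.90 and 2.73 FPKM in Ctrl (log2 difference 0.50, SE 0.113, limma, adjusted p = 0.0154). Nlrx1, a mitochondrial protein that restrains MAVS, was lower at 1.59, 1.53 and 1.73 FPKM against 2.79, 2.81 and 2.62 FPKM (log2 difference -0.52, SE 0.0719, limma, adjusted p = 0.00315). In both genes cKO replicate 2 lay with the other cKO hearts.

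Mavs itself measured 18.9, 23.8 and 26.4 FPKM in Ctrl and 14.3, 21.5 and 16.1 FPKM in cKO, and did not pass (log2 difference -0.40, limma, adjusted p = 0.117). Without cKO replicate 2 its difference was -0.56 (limma, adjusted p = 0.0330), and Mavs, Nlrx1 and Trim25, a ubiquitin ligase for RIG-I, were the 3 of the list that were lower. Over all genes tested without this heart, 15.5% were lower. Trim25 was named after its values were seen.

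Of 14 tested genes of interferon signalling, 0 were higher with limma at an adjusted or unadjusted p under 0.05 and also with voom, and 1 was lower, with a median log2 difference of -0.01. The lower gene was Ifngr1, a chain of the gamma-interferon receptor (log2 difference -0.33, limma, adjusted p = 0.0132). Over all genes tested 16.3% were higher and 17.0% were lower. In 3 of the 14 genes cKO replicate 2 was the highest heart, which is near the 18.4% of all genes tested. Stat2 (1.84, 3.51 and 1.76 FPKM in cKO against 2.20 to 2.42 in Ctrl) and Irf9 (2.41, 4.82 and 2.61 against 2.45 to 2.87) had their highest value there. Tbk1 (5.59, 4.97 and 5.51 FPKM in cKO against 4.40 to 6.04 in Ctrl) and Irf3 (7.65, 6.74 and 6.02 against 6.15 to 6.34) did not. The limma adjusted p-values of these 4 ran from 0.394 for Irf3 to 0.995 for Stat2.

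The interferons were at or near 0 in every heart. Of 10 ligand genes, 8 had no read in any library, and 3 reads would have amounted to at most 0.316 FPKM for any of them. Ifnb1, which encodes interferon beta, had 1 read in cKO replicate 2, and Ifng had 1 read in Ctrl replicate 1. Ligand RNA was therefore not detectable beyond single reads at this depth.

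Other interferon-stimulated genes were mostly highest in the same heart as the members. Of 44 tested, 0 were higher and 1 was lower in cKO with limma, against 16.3% and 17.0% of all genes tested. The lower gene was Slfn5 (log2 difference -0.38, limma, adjusted p = 0.0207). At an unadjusted p under 0.05, 1 was higher and 4 were lower, and voom called 1 higher and 1 lower. The median fitted log2 difference was -0.04. The median log2 difference from the Ctrl mean was -0.30, 0.43 and -0.17 in cKO replicates 1, 2 and 3, beside -0.38, 1.15 and -0.17 for the members. Over all genes tested it was -0.01, -0.01 and -0.02. In 33 of these 44 genes cKO replicate 2 was the highest heart, against 18.4% of all genes tested. In 15 it was at least 1.5 times the next heart, against 1.39% of all genes tested. The filter took the mean of all 6 hearts, so the 44 include genes that reached it only through cKO replicate 2. This raises both counts by construction. Without cKO replicate 2, 40 of them could be tested, of which 8 were lower and 0 higher, the latter also at an unadjusted p. Over all genes tested without this heart, 15.5% were lower and 15.3% were higher. As for the members, leaving out the heart that was mostly the highest lowers the cKO means by construction. The difference of the count from the background was not tested.

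**Figure D4:**
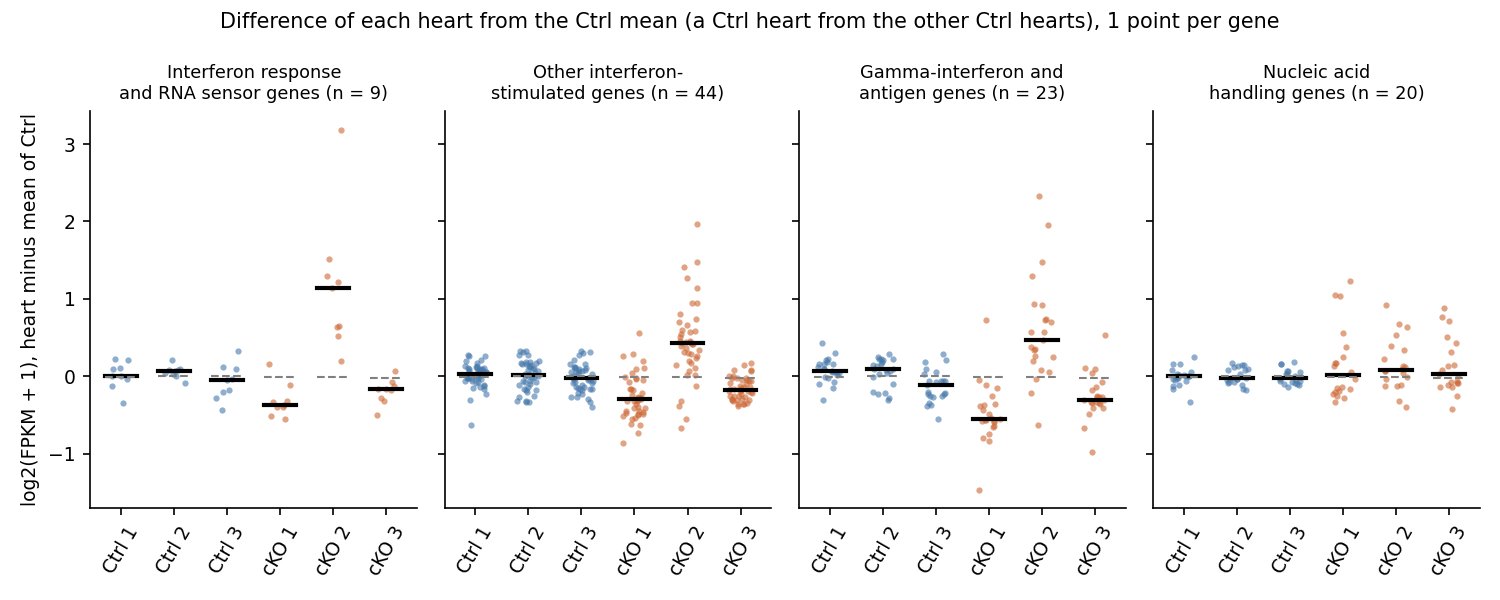
Difference in log2(FPKM + 1) of each heart from the Ctrl mean (for a Ctrl heart, from the other Ctrl hearts), with 1 point per gene, black bars for the median of the list and dashed lines for the median of all genes tested. The members have medians of -0.38, 1.15 and -0.17 in cKO replicates 1, 2 and 3, and the medians of nucleic acid handling genes stay near 0 in every heart.

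Genes of the gamma-interferon response and of antigen presentation were also mostly highest there. Of 23 tested, 1 was higher and 2 were lower in cKO with limma, against 16.3% and 17.0% of all genes tested. The median log2 difference was -0.10. The heart of cKO replicate 2 was the highest in 19, against 18.4% of all genes tested. Psmb10, an immunoproteasome subunit, was higher (36.8, 54.8 and 32.1 FPKM against 18.1 to 25.1, log2 difference 0.85, adjusted p = 0.0208). Iigp1, an interferon-inducible GTPase, was lower (4.73, 9.24 and 7.03 FPKM against 12.8 to 17.1, log2 difference -1.03, adjusted p = 0.0115), and so was Psme1, a proteasome activator (log2 difference -0.56, adjusted p = 0.0411). Without cKO replicate 2, 11 of the 23 were lower and 1 was higher, against 15.5% lower and 15.3% higher over all genes tested. Here too, leaving out the heart that was mostly the highest lowers the cKO means by construction, and the difference from the background was not tested. Iigp1 was below every Ctrl heart also in cKO replicate 2, unlike the members.

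Genes that degrade, export or bind mitochondrial and cytosolic nucleic acids were examined last. Of 20 tested, 5 were higher and 1 was lower with limma, the counts were the same without cKO replicate 2, and the median log2 difference was 0.01. Over all genes tested 16.3% were higher and 17.0% were lower, so the count of this list was near the background and is given for the genes it names. Bax and Bak1 encode the proteins that open pores in the outer mitochondrial membrane. Bax measured 12.4, 11.4 and 13.4 FPKM in Ctrl and 30.3, 20.4 and 23.7 FPKM in cKO (log2 difference 0.93, SE 0.144, adjusted p = 0.00427). Bak1 measured 5.47, 6.37 and 6.08 FPKM in Ctrl and 13.2, 12.2 and 10.9 FPKM in cKO (log2 difference 0.91, SE 0.0939, adjusted p = 0.00148). In both the groups did not overlap.

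Rexo2, a nuclease for short RNA in mitochondria, rose to 31.6, 23.6 and 24.9 FPKM from 14.4 to 15.0 (log2 difference 0.80, adjusted p = 0.00334, limma). Pde12, which trims the tails of mitochondrial RNA (0.53, adjusted p = 0.00272), and Vdac3, a channel of the outer membrane (0.39, adjusted p = 0.00753), were the remaining higher genes and were named after their values were seen. Endog, a mitochondrial nuclease, fell to 27.0 to 28.8 FPKM from 35.7 to 37.6 (log2 difference -0.38, adjusted p = 0.00655, limma). Trex1, the main cytosolic DNA exonuclease, was listed at 0 in every heart. Whether its reads were lost in the counting per gene was not checked, so this value is not read as absence of its RNA.

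**Figure D5:**
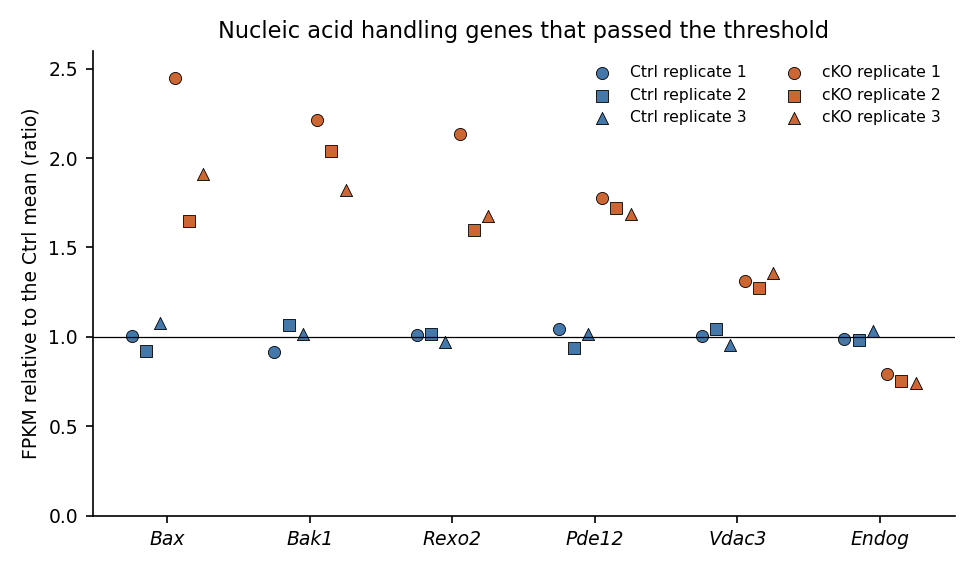
FPKM of the 6 nucleic acid handling genes past the threshold in each heart, divided by the Ctrl mean of the gene (line at 1). Bax, Bak1, Rexo2, Pde12 and Vdac3 lie above all Ctrl hearts in each cKO heart and Endog below, and cKO replicate 2 lies on the same side of the Ctrl hearts as the other cKO hearts.

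The genes whose pattern was most like that of the members were picked by Pearson's r with the mean of the standardised member values, out of 10157 protein-coding genes. Over the 6 hearts these were H2-T22 (r = 0.997), Tti2 (0.994), Xaf1 (0.993), B2m (0.989) and Unc5b (0.989). After group means were subtracted they were Polr3e, Ptn, H2-T22, Ptpn21 and Bst2, with r from 0.997 to 0.999. With 6 hearts and 1 of them far from the rest, such values describe that heart. B2m measured 248, 270.2 and 263 FPKM in Ctrl and 192, 1014 and 211 FPKM in cKO, and its promoter is shown above with 1 copy of the motif.

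Other cell types were checked through their markers. The sum of 13 macrophage markers was 348 to 482 FPKM in Ctrl and 409, 274 and 381 FPKM in cKO. Of the 11 tested ones, cKO replicate 2 was the lowest heart in 7 and the highest in 2. The sum of 9 lymphocyte markers was 0.554 to 0.870 FPKM in Ctrl and 0.391, 3.11 and 0.588 FPKM in cKO, and none reached the minimum for a test. In cKO replicate 2 that sum was made up mostly of Nkg7, a gene of cytotoxic lymphocytes, at 1.69 FPKM against at most 0.217 in the other hearts. The T cell genes Cd3d (0.496 against at most 0.185) and Cd8a (0.330 against at most 0.0721) were also highest there, whereas Cd3e was at 0.0735 FPKM there and at 0.0257 to 0.101 in the other hearts. The B cell gene Ms4a1 was at 0 in every heart, and Siglech, a marker of plasmacytoid dendritic cells, was at 0.0127 FPKM in cKO replicate 2 and at up to 0.0611 elsewhere. The sum of 5 neutrophil markers was 3.44 FPKM in cKO replicate 2 and 3.88 to 40.4 FPKM in the other hearts. The part of the lymphocyte genes, and of what the Xist and Y-linked values reflect, in the member levels of cKO replicate 2 was not tested.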

How the data were processed

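RNA was measured in tissue of 6 hearts (3 Ctrl, 3 cKO), named as ventricular in the methods, with 1 library per mouse. The authors made poly-A selected, paired-end libraries, aligned the reads with HISAT2 2.0.5, counted them per gene with featureCounts 1.5.0-p3 and deposited FPKM values, which they had scaled between samples, with the gene length as an other, gene-level column. The submitters' processing notes give DESeq2 1.16.1 for their own test on counts, where the paper's methods name another version, and the fold changes and p-values it gave were not used here. The submitters' processing notes list mm9, but 53499 of 54409 shared gene identifiers had the same start and end as in GENCODE for GRCm38, the build used here. Whether counting used strand is not given in the sources used here.

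FPKM multiplied by gene length gave whole reads for 100% of values (tolerance 0.01 read), and totals of 15989322 to 24875499 reads. Intervals and floors (3 reads) from them cover counting error only. Genes whose mean reached 0.5 FPKM were fitted as log2(FPKM + 1), which understates changes of low genes, with limma 3.58.1 in R 4.3.3 (lmFit and trended eBayes, without covariates, as a two-sided test). P-values were adjusted by Benjamini-Hochberg over all 12944 genes, with a threshold of 0.05. The authors' design has 2 groups and no covariate, and the log scale was used because the unit is FPKM. The scripts were tested on simulated data.

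The members and the gene lists were chosen with earlier results of these data known. The genes named are the 9 members, Mrps5, Mavs, Stat2, Irf9, Irf3, Tbk1 and Ifnb1, in each pathway list up to 3 called genes with the largest increase and up to 3 with the largest decrease, the 5 most like genes by each of 2 measures, and markers. A signalling gene is not reported here, though it remains in the counts. Genes named for what they showed in cKO replicate 2 were chosen after their values were seen. Alternatives were another pseudocount, other filters and scalings, eBayes without trend, voom on recovered reads, the replicate number as a block, and leaving out each heart. Promoters came from RefSeq (GRCm38.p6), with 8 of 9 members matched.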

Additional observations from a re-analysis of the deposited data

How the results depend on the processing

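No member was called higher in any alternative, and members were called lower in 1, the fit without cKO replicate 2 (0 to 3 over the fits that leave out 1 heart). All genes called numbered 1396 to 1977 higher and 1423 to 2011 lower over those fits, against 2110 and 2205 with all hearts. Scaling without genes of the mitochondrial genome moved the split to 2649 higher and 1621 lower. With 1 heart left out, lower calls ran from 1 to 3 for sensors and adaptors and from 0 to 1 for signalling. Other interferon-stimulated genes had 0 to 1 higher and 0 to 8 lower, and gamma-interferon and antigen genes 0 to 1 higher and 1 to 11 lower. In other interferon-stimulated genes 1 was higher under scaling without mitochondrial genes and under voom, 0 were lower under that scaling, and 2 were lower with the replicate block. In gamma-interferon and antigen genes 0 were higher and 1 was lower with no filter, and 1 was lower under scaling without mitochondrial genes. The cause of these shifts was not tested.

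Signs turned in several genes, and none of these passed the threshold with all hearts. Over the fits without 1 heart the log2 difference ran from -0.20 to 0.72 for Ifit1, -0.53 to 0.36 for Ifit3, -0.26 to 0.58 for Isg15, -0.42 to 1.43 for Irf7, -0.27 to 0.23 for Oasl2, -0.14 to 0.20 for Ddx58, -0.26 to 0.0085 for Ifih1 and -0.34 to 0.43 for Usp18. It ran from -0.23 to 0.12 for Stat2, -0.070 to 0.31 for Irf9 and -0.024 to 0.17 for Tbk1. Oasl2 was at -0.0068 with a pseudocount of 0.1. Stat2 was at 0.016 under median-of-ratios scaling, 0.058 under scaling without mitochondrial genes and 0.021 under voom. With the replicate block, 1874 genes were higher and 1982 lower and 0 members were called. The same-numbered hearts correlated at -0.06, 0.17 and -0.01 in their deviations from the group means, so the numbers were not taken to pair the hearts.

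Of the named genes that passed with all hearts, Psme1 missed the threshold in 6 of 14 alternatives, Slfn5 and Psmb10 in 3 each and Ifngr1 in 2, and Mavs passed in 1. By alternatives chosen after seeing the data, cKO replicate 2 was highest for 9 members under both other scalings, and 7 members were at least 1.5 times the next heart under median-of-ratios scaling and 5 at a ratio of 2. With 3 hearts a group, and 1 far from the rest, intervals of Irf7 or Ifit3 allow large differences of either sign.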

Other observations

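The members were not the only genes far above the other hearts in cKO replicate 2. The genes of this paragraph were chosen after their values were seen. In that heart 108 protein-coding genes that averaged 1 FPKM or more were at least 1.5 times the highest other heart, of which 7 were members and 19 were on the other interferon lists. The average included cKO replicate 2, so a gene such as Xaf1 reached 1 FPKM only through this heart. That raises the counts by construction. The share of members and list genes among all protein-coding genes of this level was not counted, so no excess is read from them. Among the 25 largest ratios, 14 were members or genes of those lists. Class I antigen genes were among them, with H2-K1 at 307 FPKM against at most 65.9 in the other hearts, H2-D1 at 249 against 97.3 and Ifi27, an interferon-stimulated gene, at 79.3 against 22.4. Other genes among the largest ratios were of other kinds. Nppb, a natriuretic peptide, was at 3352 FPKM against 1203, Ankrd1, a stretch-responsive muscle gene, at 3620 against 1596, and Acta1, skeletal actin, at 2391 against 1073. Nmrk2, a kinase of NAD synthesis, was at 505 against 54.1 FPKM. Ddit3, a transcription factor of the integrated stress response, was at 71.0 against 22.3, and the mitokine Gdf15 at 129 against 56.9.

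The promoter motif GAAANNGAAA was held by 24.7% of the 85 genes far above in cKO replicate 2 that had a promoter sequence, against 3.56% of the genes tested. Of the 62 of them that are on no list, 14.5% held it. The lists are not complete, and the far-above genes on none of them include the class I genes H2-T22, H2-Q7 and H2-Q6. It was held by 20 of 40 other interferon-stimulated genes, 8 of 19 gamma-interferon and antigen genes, 3 of 15 signalling genes, 1 of 9 sensors and adaptors and 0 of 19 nucleic acid handling genes. These shares are descriptions of the letters in the window.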
